A study of Mus musculus with 12 samples.

Results

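The genes described here encode the protein components of the cytosolic ribosome. They were the entries of the count table whose name is RPL or RPS with a number (at most A, X or L and 1 more digit after it), RPLP0, RPLP1, RPLP2 or RPSA, which took 82 of 21497 entries, 32 of the small subunit and 50 of the large subunit. Entries marked as pseudogenes (156 with -PS in the name), the S6 kinases, RPS19BP1 and RPL7L1 were outside the rule. The rule used names alone and no measured value, but the family was chosen with earlier results of these data known.

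RNA sequencing counts were taken from bone marrow cells of C57BL/6 mice with a donor age of 0.35 years, either wild type (WT) or Tet2-/-Flt3ITD, which is written T2F3 in the sample titles. Tet2-/- marks loss of a DNA demethylase and Flt3ITD an activating internal tandem duplication of a cytokine receptor. From each genotype came LSK cells, a population enriched for stem and multipotent progenitor cells, and granulocyte-macrophage progenitors (GMP), with 3 libraries in each of the 4 groups. No treatment is named in the labels, which give the same strain and age for all groups. Each description label also carries a code of 3 letters (LEI, HAN, YOD or LUK), whose meaning is not given and which is uneven over the groups: T2F3 LSK has LEI, YOD and LEI for replicates 1 to 3, and WT LSK has YOD, HAN and LUK. The labels do not say that each replicate number is an animal of its own, so the p-values below measure the spread between these libraries. The labels do not give the zygosity of Flt3ITD, or whether sorted cells of several animals were pooled.

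The small subunit decodes messenger RNA and the large subunit joins amino acids. An acidic stalk of Rplp0, Rplp1 and Rplp2 on the large subunit recruits the translation factors. Messenger RNAs of these proteins begin with a run of pyrimidines, the TOP motif, through which mTOR signalling regulates their translation. Inherited loss of 1 copy of several of these genes causes Diamond-Blackfan anaemia, in which red cell precursors fail, so the family is well known in blood formation.

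The stretches below run from 80 bases before to 20 bases from the annotated start. Shown are those of 2 of the genes that rose in T2F3 LSK cells (Rpl14 and Rps3a1). Another is of a gene with a like change that missed the threshold (Rps25), as other members did. The last is of a second copy with the largest difference in GMP (Rpl22l1). They are RefSeq sequences on GRCm38.p6. Rpl14 lies at chr9:120571437-120571536 on the plus strand. Rps3a1 lies at chr3:86142649-86142748 on the minus strand. Rps25 lies at chr9:44407634-44407733 on the plus strand. Rpl22l1 lies at chr3:28805428-28805527 on the plus strand.
Rpl14: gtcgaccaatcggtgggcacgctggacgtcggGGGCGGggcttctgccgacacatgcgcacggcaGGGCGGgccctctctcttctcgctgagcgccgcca
Rps3a1: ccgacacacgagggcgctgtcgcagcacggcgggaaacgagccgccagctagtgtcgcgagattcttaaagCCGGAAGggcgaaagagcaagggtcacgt
Rps25: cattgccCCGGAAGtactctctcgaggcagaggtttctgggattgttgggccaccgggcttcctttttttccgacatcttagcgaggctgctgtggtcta
Rpl22l1: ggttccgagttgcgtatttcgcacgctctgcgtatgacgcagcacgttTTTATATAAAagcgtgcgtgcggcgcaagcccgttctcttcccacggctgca
Capitals mark matches, on either strand, to GGGCGG (the SP1 family) in Rpl14, to CCGGAAG (the ETS family) in Rps3a1 and Rps25, and to TATAAA (the TATA box) in Rpl22l1, where matches on both strands overlap and form a single run. A RefSeq window, 250 bases before to 50 after the start, was matched for 62 members. CCGGAAG was in 25 of them (40.3%), against 9.12% of 27025 genes, GGGCGG was in 37 (59.7%, against 35.9%), CTTTCC in 29 (46.8%, against 26.3%) and TATAAA in 6 (9.68%, against 14.2%). A match is a description of letters, and binding was not measured.

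Depth ranged from 13316474 counts (WT LSK replicate 3) to 23536258 counts (T2F3 GMP replicate 2). Tet2 was at 88.9, 79.7 and 78.9 CPM (counts per 1000000) in WT LSK against 42.0, 89.0 and 40.9 CPM in T2F3 LSK, and at 107, 137 and 112 CPM in WT GMP against 96.3, 88.8 and 66.1 CPM in T2F3 GMP. Tet2 was not called in either (edgeR adjusted p = 0.306 and 0.480), and since the labels do not say which part is deleted, counts over the whole gene do not check the genotype. Small noncoding RNA genes, counted here and below together with unnamed clones, took from 8.94% to 31.8% of the counts, with the highest share in T2F3 LSK replicate 1. Ly6a (Sca-1) was at 26.8, 17.9 and 23.9 CPM in the LSK libraries of WT mice and 3.57, 1.52 and 1.57 CPM in WT GMP. Kit was at 1002, 881 and 763 CPM in WT LSK against 242, 301 and 255 in T2F3 LSK. Cd34 was at 390.0, 519 and 559 CPM in WT LSK against 300.3, 254 and 325 in WT GMP. Levels in CPM are scaled by the TMM method unless stated otherwise. The labelled gate of the LSK sort reads Sca-1 negative, whereas Ly6a RNA was higher in LSK than in GMP of both genotypes (a log2 difference, GMP minus LSK, of -3.37 ± 0.58 (SE), edgeR adjusted p = 0.00273, in WT, and -2.73 ± 0.56, adjusted p = 0.0388, in T2F3). The summed level of the 6 LSK markers was 1293 to 1815 CPM in WT LSK and 400.0 to 486 CPM in T2F3 LSK. Fcgr3, a GMP marker, was at 1.19, 3.19 and 3.62 CPM in the LSK libraries of WT mice against 159.9, 115 and 94.4 CPM in their GMP libraries. Mpo, another, was at 2341, 2023 and 1477 CPM against 35193, 25152 and 15155 CPM. The 6 GMP markers summed to 1782 to 2879 CPM in WT LSK and 20667 to 53840 CPM in WT GMP. In T2F3 they summed to 3502 to 5308 CPM in LSK and 9600 to 20058 CPM in GMP. By edgeR, 6 of these 6 were called higher in GMP than in LSK in WT (beside 5.72% of all genes). In T2F3 1 was (beside 0.274%).

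As a pool, the 82 genes took 1.62%, 1.66% and 2.49% of all counts in WT LSK (mean 1.92% ± 0.49, SD, n = 3 here and below), against 3.14%, 1.87% and 2.25% in T2F3 LSK (2.42% ± 0.65). In WT GMP the shares were 1.98%, 2.15% and 2.16% (2.10% ± 0.10), against 2.61%, 2.37% and 2.30% in T2F3 GMP (2.43% ± 0.16). The LSK groups overlapped, since WT LSK replicate 3 lay above 2 of the 3 T2F3 LSK libraries, while every T2F3 GMP library was above every WT GMP library. With small noncoding RNA genes left out of the total, the GMP groups overlapped too, at 2.36% to 2.76% in WT and 2.61% to 3.51% in T2F3. No test was made on the pool. A single gene weighed heavily in it: Rpl12, a protein of the stalk base, made up 26.4% of the pool in WT LSK replicate 3, 24.1% in WT GMP replicate 3, 11.5% in T2F3 LSK replicate 1 and 1.97% to 7.39% in the other libraries.

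**Figure D1:**
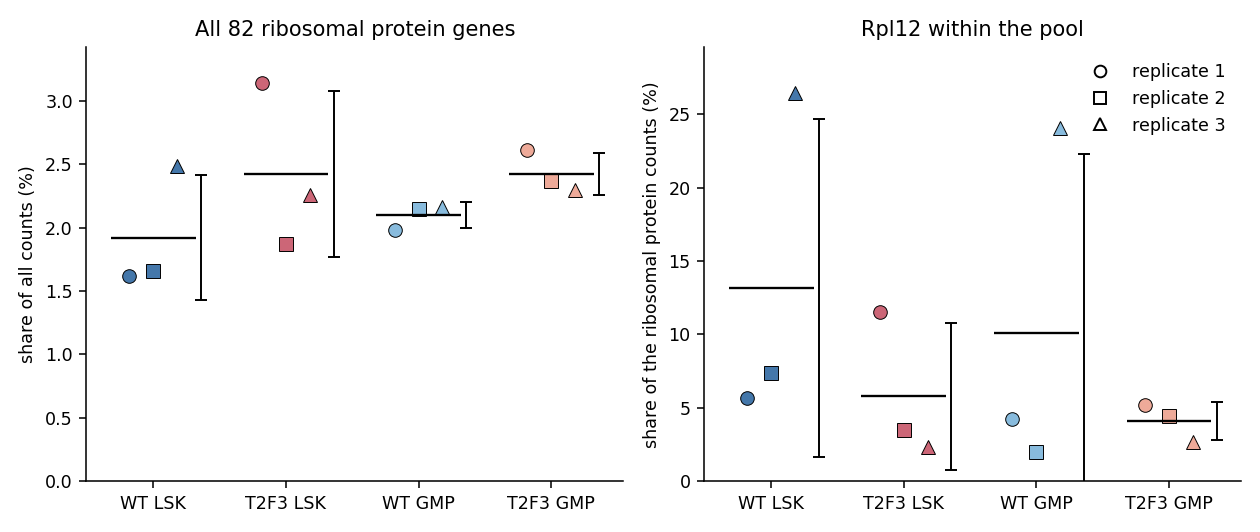
Left, share of each library's counts on the 82 ribosomal protein genes (%); right, share of those counts on Rpl12 (%). Symbols are libraries, lines are group means and bars are SD (n = 3; a bar that passes 0 is cut there). T2F3 LSK replicate 1 has the highest pool share, 3.14%, and Rpl12 is highest in WT LSK replicate 3 and WT GMP replicate 3, at 26.4% and 24.1% of the pool.

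In LSK cells Rpl12 was at 1030.4, 1110.0 and 6476 CPM for WT and 4382, 588 and 431 for T2F3. In GMP cells it was at 1116, 394 and 5275 CPM for WT and 1535, 923 and 552 for T2F3. The libraries of WT replicate 3 were high in both populations, and their titles share the stem WT3. The SD of log2 CPM within groups (0.5 CPM added) was 1.55 for Rpl12, against a median of 0.45 over the 79 tested members. Rpl37, of the large subunit, followed with 0.92, and its levels of 66.2, 75.8 and 258 CPM in WT LSK against 292, 72.4 and 74.8 CPM in T2F3 LSK were high in WT LSK replicate 3 and T2F3 LSK replicate 1 as well. Rps20 and Rps23 of the small subunit both had 0.85. The least variable members included Rps28 (0.20) and Rps27a, which is made as a fusion with ubiquitin (0.22). The annotation places a small nucleolar RNA, Snora65, inside Rpl12, over an exon of a transcript that retains an intron, so reads of host and small RNA cannot be told apart there.

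Of the 82 genes, 79 passed the filter on low counts and were tested among 16042 genes. The 3 others are second copies of members, best known from testis or muscle. Rpl10l had 0 counts in every library, which allows up to 3 counts, or 0.127 to 0.225 CPM without TMM scaling. Rpl3l, a muscle copy of Rpl3, had 20 counts in WT LSK, all in replicate 3, and Rpl39l had 10 in WT GMP, all in replicate 3. The entry deposited as RPL24 carries an identifier that GENCODE vM21 gives to Zbtb11, so its identity is uncertain. It was left out of the range and ranks of levels per length, but not of their median and correlation.

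Levels per kilobase of the main transcript (GENCODE vM21) spanned 662-fold over 78 members. The median was 146 CPM per kb over the 79 tested members, which include the RPL24 entry. The highest were Rpl32 (2074 CPM per kb), Rpl12 (1598), Rpl8 (1353), Rplp1 (1274) and Rpl4 (1177). The lowest were Rpl17 (3.13), Rps12 (8.25), Rps27 (9.95) and Rps27l (20.4). Mouse ribosomal protein genes have many processed pseudogenes, whose letters repeat those of the parent. Of the 50-base windows of each transcript, a median of 46.4% over the 82 members occurred in no other annotated gene, against 97.0% over 75 genes of the mitochondrial ribosome, and 49 of 82 members were under 50%, against 5 of 75. The share was 1.35% for Rps27, 4.91% for Rpl35 and 6.16% for Rpl5, and 97.0% for Rps3 and 94.8% for Rpl22. Spearman's rho of this share with the level per kb was 0.28 over the 79 tested members, which include the RPL24 entry and share libraries and mapping. The authors' rule for reads that map to several places is not stated in the labels, and its part in the levels was not tested.

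**Figure D2:**
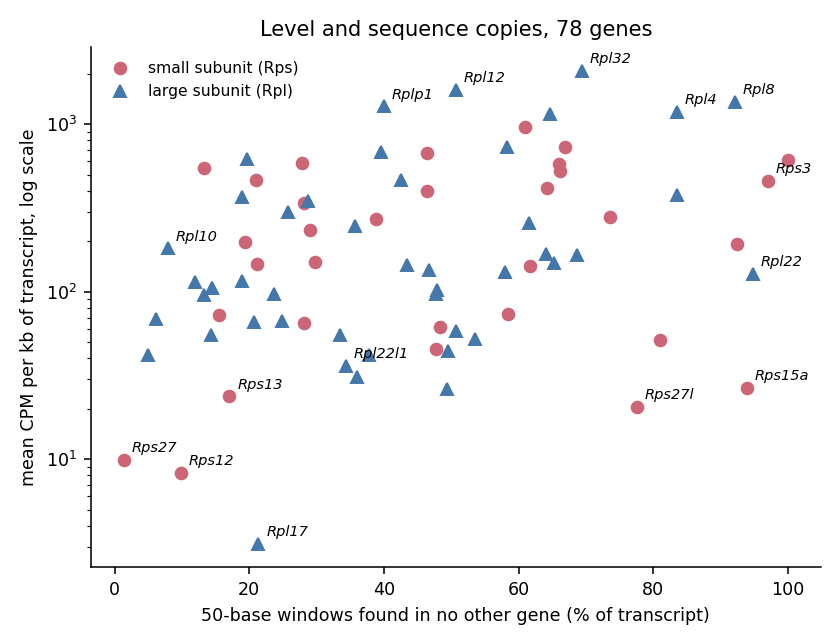
Mean level over 12 libraries (CPM per kb of transcript, log scale) against the share of a transcript's 50-base windows found in no other gene (%), 1 point per gene for 78 genes. Rpl17, Rps12 and Rps27 are the lowest, at 3.13, 8.25 and 9.95 CPM per kb, and have 21.3%, 9.89% and 1.35% of such windows, but Rpl13, at 19.7%, has 617 CPM per kb.

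In LSK cells, 4 ribosomal protein genes rose in T2F3 and none fell, with an edgeR adjusted p under 0.05, among them Rpl14, Rpl7 and Rps3a1. The 4 of 79 are 5.06%, beside 2.76% of all 16042 genes called higher, 2.44% called lower and 5.2% called in either direction, so the members' share called in either direction was close to that of all genes. The differences of the members leaned to T2F3: 69 of 79 were positive, with a median log2 difference of 0.42, where 53% of all genes were positive with a median of 0.05. An unadjusted p under 0.05 was reached by 21 of the 79 members, all higher in T2F3. Of all 16042 genes 3451 (21.5%) reached it in either direction, 1809 of them higher and 1642 lower. In 19 members all T2F3 LSK libraries were above all WT LSK libraries (24.1%, beside 14.7% of all genes), and for Rps13 and Rpl13 every T2F3 library was below every WT library (beside 13.3% of all genes). In bulk samples, fewer cells of a type and less RNA per cell cannot be told apart.

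Rpl14, a large subunit protein, was at 17.1, 24.8 and 29.7 CPM in WT LSK against 119, 65.6 and 75.8 CPM in T2F3 LSK. The groups did not overlap, and the lowest T2F3 library was above the highest WT library by more than the range of the WT libraries. The log2 difference was 1.86 ± 0.34 (SE), a 3.63-fold higher level, with an edgeR adjusted p = 0.0108. Its window shown above holds 2 GGGCGG matches.

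Rpl7, of the large subunit, was at 63.7, 56.5 and 114 CPM in WT LSK against 288, 156 and 222 CPM in T2F3 LSK. WT LSK replicate 3 was the highest of its group and still under the lowest T2F3 library. The log2 difference was 1.51 ± 0.29 (2.84-fold, edgeR adjusted p = 0.0145). Rps3a1, a small subunit protein that contacts initiation factor eIF3, was at 55.1, 92.7 and 169.7 CPM in WT LSK against 447, 204 and 304 CPM in T2F3 LSK. The groups did not overlap although the WT libraries spanned a wide range, and the log2 difference was 1.59 ± 0.41 (3.01-fold, edgeR adjusted p = 0.0433).

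**Figure D3:**
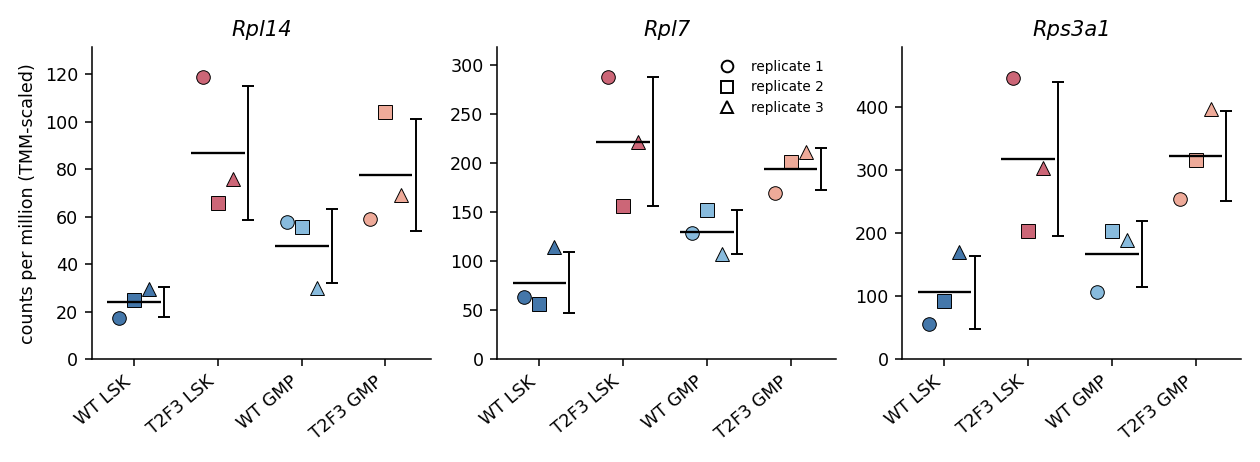
TMM-scaled level (CPM) of Rpl14, Rpl7 and Rps3a1, which rose in T2F3 LSK cells, in all 12 libraries. Symbols are replicates, lines are group means and bars are SD (n = 3). T2F3 LSK replicate 1 is the highest LSK library for each gene, at 119 CPM for Rpl14, and the T2F3 GMP libraries lie at 59.1 to 104 CPM for Rpl14 beside 29.9 to 57.9 in WT GMP.

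Much of this lean came with 1 library. T2F3 LSK replicate 1 was the highest of the 6 LSK libraries for 62 of the 79 members, and it also had the highest share of small noncoding RNA, 31.8%. Without it the median fell to 0.10, 48 of 79 members were positive, and only Rpl14 was called. Calls over all genes fell as well, from 834 to 228. The loss of calls was not particular to this library. Without WT LSK replicate 1 or replicate 2, Rpl14 was also the only member called, beside 326 and 298 of all genes, with medians of 0.47 and 0.34. Without both libraries of T2F3 replicate 1, edgeR called 0 members and 136 of all genes, and 8 members had an unadjusted p below 0.05. With the small RNA share as a covariate, 6 members and 987 of all genes were called, and the median of the members was 0.53. With the code of the description label as a covariate, an alternative chosen after seeing the data, edgeR called 0 members and 18 of the 16042 genes. The covariate leaves fewer residual degrees of freedom than the 8 of the main fit, and the code is uneven over the groups. In that fit 7 members had an unadjusted p under 0.05, and the median of the members was 0.30 with 59 of 79 positive. Rpl14 was then 1.5 ± 0.42 higher (adjusted p = 0.189), Rpl7 1.23 ± 0.29 (0.143) and Rps3a1 1.38 ± 0.48 (0.264). Rpl14 kept its call without any 1 of the 12 libraries, with log2 differences of 1.56 to 2.03 (edgeR adjusted p up to 0.0480). Rpl7 lost it without WT LSK replicate 1, WT LSK replicate 2 or T2F3 LSK replicate 1 (adjusted p of 0.0568 to 0.0659). Rps3a1 kept its call in 3 of the 12 cases. It lost the call without WT LSK replicate 1 or 2, T2F3 LSK replicate 1 or 3, WT GMP replicate 2 or 3, or any T2F3 GMP library (adjusted p of 0.0531 to 0.167). The parts of the small RNA share, the code and this library in the differences were not tested further.

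**Figure D4:**
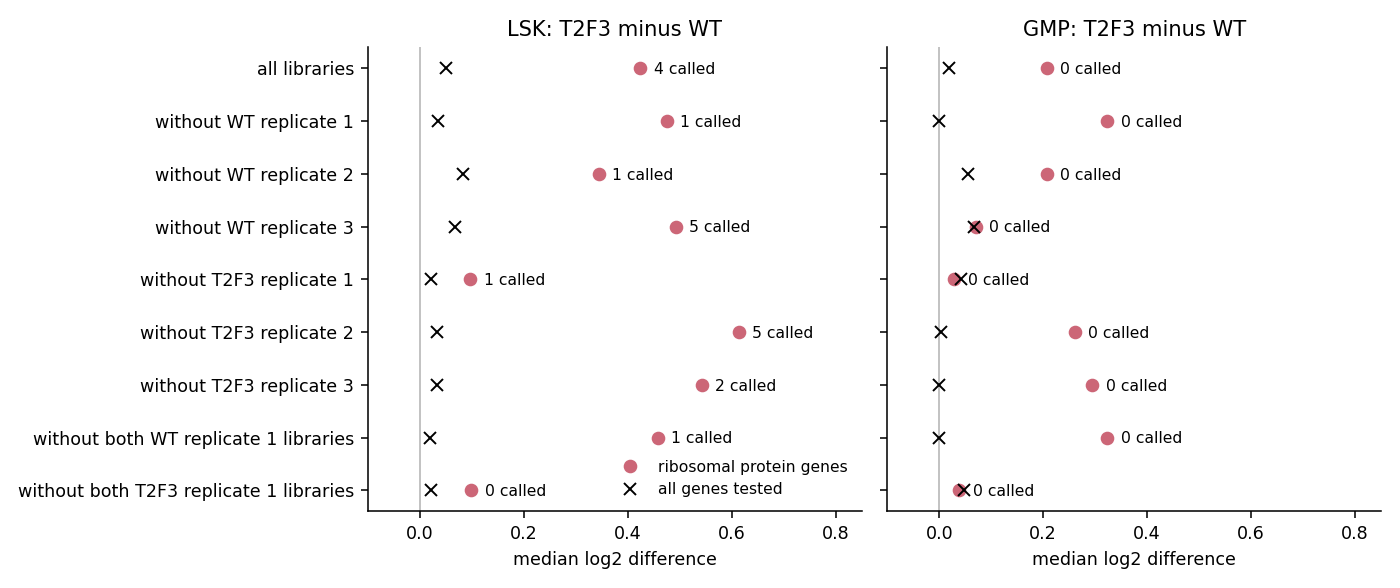
Median log2 difference, T2F3 minus WT, of the 79 ribosomal protein genes (circles) and of all genes tested (crosses), with all libraries and with libraries left out; the numbers give the members called. Without T2F3 LSK replicate 1 the LSK median is 0.10 instead of 0.42 and 1 member is called instead of 4, while calls over all genes fall from 834 to 228. In GMP no setting shown gives a call among the members.

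Scaled to the summed counts of the family itself, which asks how members differ within the pool, 0 members were called in LSK by edgeR, beside 1.2% of all genes. Rpl14 was then 1.55 ± 0.41 higher on the log2 scale (adjusted p = 0.0879), Rpl7 1.27 ± 0.36 (0.112) and Rps3a1 1.32 ± 0.44 (0.185). The SEs were larger than in the main fit, at 0.34, 0.29 and 0.41 in the same order. The summed counts include Rpl12, at 26.4% of the pool in WT LSK replicate 3 and 2.31% in T2F3 LSK replicate 3. The loss of calls therefore does not show that members keep the same share of the pool. Small subunit genes made up 35.9% ± 3.40 of the pool in WT LSK and 37.6% ± 1.19 in T2F3 LSK. The subunits had like medians, with 2 of 32 small subunit genes called and a median log2 difference of 0.40, and 2 of 47 large subunit genes called and a median of 0.42.

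Members next in line in LSK missed the threshold. Rpl21 (log2 difference 0.89 ± 0.27, edgeR adjusted p = 0.0730) and Rpl36a (0.99 ± 0.31, adjusted p = 0.0869) are large subunit proteins. Rps25, a small subunit protein used by some viral internal ribosome entry sites, was at 37.2, 73.0 and 129 CPM in WT LSK against 292, 117 and 167 CPM in T2F3 LSK (1.27 ± 0.41, adjusted p = 0.0934), with WT LSK replicate 3 above T2F3 LSK replicate 2. The lowest p-values among members with negative differences were those of Rpl34 (-0.69 ± 0.40, adjusted p = 0.350), Rps13 (-0.57 ± 0.38, 0.423), Rpl13 (-0.44 ± 0.30, 0.438), Rpl38 (-0.40 ± 0.49, 0.700), Rpl12 (-0.67 ± 1.03, 0.775) and Rpl7a (-0.15 ± 0.25, 0.793).

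The stalk genes were not called in any comparison. Rplp0 was at 698, 673 and 828 CPM in WT LSK against 1343, 801 and 865 in T2F3 LSK, with WT replicate 3 above T2F3 replicate 2 (log2 difference 0.45 ± 0.27, edgeR adjusted p = 0.366). In GMP it was at 1349.9, 1147 and 853 CPM in WT and 1255, 960.3 and 1122 in T2F3 (-0.01 ± 0.27). The other stalk proteins, Rplp1 and Rplp2, had log2 differences in LSK of 0.42 ± 0.27 and 0.51 ± 0.49, were not called and had groups that overlapped.

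Among small subunit proteins with known roles, Rps3, which lines the entry of the messenger RNA channel, was at 687, 531 and 641 CPM in WT LSK against 1523, 757 and 926 in T2F3 LSK. The groups did not overlap, but the log2 difference of 0.79 ± 0.32 was not called (edgeR adjusted p = 0.176). Rps6, the substrate of the S6 kinases, was at 35.7, 49.6 and 70.0 CPM in WT LSK against 88.1, 48.3 and 70.3 CPM in T2F3 LSK (0.41 ± 0.34, adjusted p = 0.540), with overlap. Rpsa, which doubles as a laminin receptor, was at 905, 825 and 1034 CPM in WT LSK against 1700.2, 678 and 702 CPM in T2F3 LSK (0.16 ± 0.41, adjusted p = 0.879), where only replicate 1 of T2F3 was above WT.

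Of 19 genes mutated in Diamond-Blackfan anaemia, 0 were called in any comparison by edgeR, and an unadjusted p below 0.05 was seen for 3 in LSK (21.5% of all genes) and 1 in GMP (13.6% of all genes). In LSK 17 of the 19 were positive with a median of 0.39, where 53% of all genes were positive. Rps19, the gene most often mutated there, was at 118, 219.8 and 354 CPM in WT LSK against 546, 157 and 199.7 CPM in T2F3 LSK, so that the groups overlapped (0.39 ± 0.48, adjusted p = 0.706). Rps14, lost in the 5q- syndrome, was at 255, 251 and 412 CPM in WT LSK against 587, 287 and 275 CPM in T2F3 LSK (0.33 ± 0.34, adjusted p = 0.636). Markers of red cell precursors moved between the same libraries: the 8 erythroid markers summed to 136 to 313 CPM in WT LSK and 1.77 to 4.38 CPM in T2F3 LSK, and none was at 0 throughout a group. Gata1 was at 62.1, 26.6 and 41.9 CPM in WT LSK against 0.607, 0.709 and 0.617 CPM in T2F3 LSK. The 6 dendritic cell and monocyte markers summed to 101 to 251 CPM in WT LSK and 334 to 5749 CPM in T2F3 LSK. In GMP they summed to 49.6 to 85.6 CPM in WT and 771 to 2601 CPM in T2F3. The part of cell composition in the members' differences was not tested.

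Rpl5 and Rpl11 form, with the 5S RNA, the particle that binds Mdm2 and stabilises p53. Rpl5 was at 142, 106 and 134 CPM in WT LSK against 119, 139 and 137 in T2F3 LSK, a log2 difference of 0.05 ± 0.27, and at 112, 79.9 and 156 CPM in WT GMP against 143, 153 and 259 in T2F3 GMP (0.68 ± 0.27, edgeR adjusted p = 0.290). Rpl11 was at 37.8, 24.8 and 21.9 CPM in WT LSK against 55.9, 26.3 and 31.4 CPM in T2F3 LSK (0.42 ± 0.33, adjusted p = 0.514). Neither was called. Of 24 p53 target genes, Tigar, a regulator of glycolysis, rose in T2F3 LSK (1.51 ± 0.36, adjusted p = 0.0325) and Trp53inp1 fell (-1.65 ± 0.38, adjusted p = 0.0294). The 2 of 24 are 8.33%, beside 5.2% of all genes, and 6 had an unadjusted p under 0.05, beside 21.5% of all genes. None of the 24 was called in GMP by edgeR, where 5 had an unadjusted p under 0.05, beside 13.6% of all genes.

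Other members studied for separate roles were not called in LSK either. Rpl3, at the peptidyl transferase centre, was at 94.2, 63.1 and 159 CPM in WT LSK against 250.1, 134 and 150.0 CPM in T2F3 LSK (0.76 ± 0.33, edgeR adjusted p = 0.205). Rpl13a, known for translational silencing by the GAIT complex, was at 614, 357 and 277 CPM in WT LSK against 714, 475 and 405 CPM in T2F3 LSK (0.35 ± 0.40). Rpl38, which affects translation of Hox messenger RNAs in the embryo, was at 67.7, 26.2 and 24.7 CPM in WT LSK against 43.2, 21.5 and 25.3 CPM in T2F3 LSK (-0.40 ± 0.49). In the last, WT replicate 1 was the highest library.

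Rpl22l1 and Rps27l are second copies with counts in every library. The parent Rpl22, whose loss affects T cell development, was at 196, 211 and 243 CPM in WT LSK against 422, 205 and 291 in T2F3 LSK (log2 difference 0.50 ± 0.25, edgeR adjusted p = 0.275). Rpl22l1 was at 13.2, 12.0 and 8.64 CPM in WT LSK against 26.0, 16.9 and 29.0 CPM in T2F3 LSK (1.08 ± 0.52, adjusted p = 0.250), without overlap. In GMP Rpl22l1 was at 4.76, 16.7 and 13.7 CPM in WT and 16.4, 22.5 and 60.2 CPM in T2F3 (1.49 ± 0.52, adjusted p = 0.212), where T2F3 replicate 3 was far above the others. Its level per length, 36.2 CPM per kb over the 12 libraries, was below the 128 CPM per kb of Rpl22. The window of Rpl22l1 shown above holds the TATA box letters.

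Rps27l, a p53-responsive copy of Rps27, was at 1.38, 6.44 and 4.51 CPM in WT LSK against 16.3, 9.92 and 10.2 CPM in T2F3 LSK, and the groups did not overlap (1.56 ± 0.58, edgeR adjusted p = 0.136). Rps27 was at 1.91, 5.32 and 2.96 CPM in WT LSK against 4.02, 2.04 and 2.30 CPM in T2F3 LSK (-0.29 ± 0.56, adjusted p = 0.828), but only 1.35% of its windows are its own. Rpl39 was at 90.1, 198 and 147 CPM in WT LSK against 333, 200.3 and 236 CPM in T2F3 LSK (0.82 ± 0.34, adjusted p = 0.183), and its copy Rpl39l was at the edge of detection. Rpl10, the parent of Rpl10l, was at 118, 111 and 123 CPM in WT LSK against 168, 100.0 and 87.1 CPM in T2F3 LSK (0.01 ± 0.31).

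In GMP cells 0 of 79 members were called between genotypes by edgeR, by limma-voom or by DESeq2. Over all genes edgeR called 1.14%, limma-voom 832 genes and DESeq2 785 genes. With edgeR 4 members reached an unadjusted p under 0.05, beside 13.6% of all genes. Positive differences were found for 53 members, with a median of 0.21, beside 51.3% and 0.02 over all genes. T2F3 GMP replicate 1 was the highest GMP library for 37 of the 79 members, and without it the median was 0.03 with 42 positive. The median was 0.07 without WT GMP replicate 3 and 0.32 without WT GMP replicate 1. With the code of the description label as a covariate it was 0.31, with 67 positive. In 13 members (16.5%) all T2F3 GMP libraries were above all WT GMP libraries, beside 12% of all genes, and in Rps27 all were below, beside 9.72%. The smallest p-values were those of Rpl22l1 and Rpl5, given above, and of Rps3a1 (0.95 ± 0.40, edgeR adjusted p = 0.312), Rps25 (0.94 ± 0.41, 0.335), Rpl14 (0.70 ± 0.33, 0.377) and Rpl21 (0.56 ± 0.26, 0.386). Rps3a1 was at 107, 203 and 189 CPM in WT GMP against 254, 317 and 397 CPM in T2F3 GMP, without overlap. Rps25 was at 132, 128 and 103 CPM in WT GMP against 189, 203 and 306 CPM in T2F3 GMP, also without overlap. Among negative differences the smallest p-values were those of Rpl34 (-0.57 ± 0.40), Rpl10 (-0.37 ± 0.31), Rpl12 (-1.17 ± 1.04), Rpl28 (-0.37 ± 0.34), Rpsa (-0.38 ± 0.42) and Rps27 (-0.48 ± 0.56), with adjusted p from 0.600 to 0.801.

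Libraries of both populations share title stems, though the labels do not say whether a stem is a single animal. The genotype differences in LSK and GMP use no library in common. Over the 79 members their Pearson r was 0.68 (Spearman's rho 0.66), beside 0.49 over all genes, as a description with no test. Both differences were positive in 52 members and both negative in 9. The difference between the 2 effects was called for 0 members by edgeR, limma-voom or DESeq2. Over all genes edgeR called it for 0.0249%, limma-voom for 23 genes and DESeq2 for 191 genes. An unadjusted p under 0.05 was reached by 2 members and by 9.47% of all genes. These were Rpl14 (LSK effect minus GMP effect 1.16 ± 0.46, adjusted p = 0.472) and Rpl7 (0.92 ± 0.40, 0.519). Then came, among others, Rps27l (1.23 ± 0.80), Rpl8 (0.68 ± 0.44) and Rps18 (0.63 ± 0.44), and on the negative side Rpl13 (-0.74 ± 0.42), Rpl5 (-0.63 ± 0.39), Rpl17 (-0.69 ± 0.95), Rps13 (-0.36 ± 0.53), Rpl22l1 (-0.41 ± 0.73) and Rpl38 (-0.38 ± 0.69). So no member's effect was shown to differ between LSK and GMP.

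**Figure D5:**
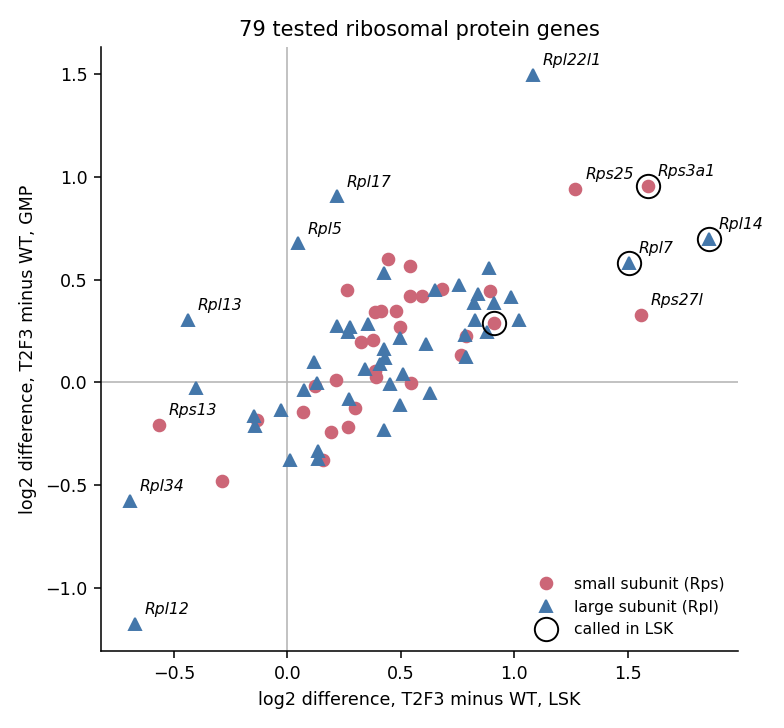
Log2 difference, T2F3 minus WT, in GMP (vertical) against LSK (horizontal), 1 point per tested ribosomal protein gene (79). Circled are the 4 genes called in LSK; 52 genes are positive in both populations and 9 negative in both, and Rpl22l1 has the largest difference in GMP, 1.49.

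Between populations, 0 of 79 members were called in WT (GMP against LSK, edgeR), where 13.1% of all genes were, and 8 reached an unadjusted p under 0.05, as 28.3% of all genes did. With the title stem of the libraries as a block, Rpl10 alone was called. limma-voom called 3 members (Rpl4 and Rpl7 higher in GMP, Rpl13 lower), beside 3186 of all genes. DESeq2 called Rpl14, beside 3225 of all genes. Positive differences were found for 66 members (median 0.31), beside 50.2% of all genes (median 0.01). The median was 0.19 without WT GMP replicate 1, 0.46 without WT GMP replicate 3 and 0.19 with the code as a covariate. In this comparison 10 members (12.7%) were above LSK in all GMP libraries, beside 15.2% of all genes. This comparison shares the WT LSK libraries with the genotype comparison in LSK. Rpl14 had the smallest p, with 17.1, 24.8 and 29.7 CPM in LSK and 57.9, 55.6 and 29.9 CPM in GMP (1.00 ± 0.33, edgeR adjusted p = 0.0640). Rpl7 (0.73 ± 0.29), Rps27l (1.40 ± 0.58), Rpl10 (0.72 ± 0.31) and Rplp0 (0.61 ± 0.27) were among those that followed, with adjusted p from 0.112 to 0.163. Rpl13 was the member with the smallest p among those lower in GMP, at 731, 537 and 609 CPM in WT LSK against 354, 232 and 539 CPM in WT GMP (-0.74 ± 0.30, adjusted p = 0.125). After it came Rps13 (-0.31 ± 0.38), Rpl17 (-0.37 ± 0.68), Rpl5 (-0.14 ± 0.27), Rpl7a (-0.12 ± 0.25) and Rpl36 (-0.17 ± 0.40).

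Without WT LSK replicate 3, Rpl7 was called in this comparison, and without WT GMP replicate 3, Rpl13, Rpl14 and Rps29 were. In T2F3 cells, GMP against LSK, 0 members were called by edgeR, limma-voom or DESeq2. Over all genes edgeR called 0.972%, limma-voom 561 genes and DESeq2 522 genes. No member reached an unadjusted p under 0.05 with edgeR, which 7.99% of all genes did. The median was 0.03 with 46 members positive. It depended on single libraries: without T2F3 LSK replicate 1 it was 0.40 with 77 positive and 3 members at an unadjusted p under 0.05. It was -0.15 without T2F3 LSK replicate 2, -0.11 without T2F3 LSK replicate 3, -0.12 without T2F3 GMP replicate 1, 0.10 without T2F3 GMP replicate 2 and 0.11 without T2F3 GMP replicate 3. Without 1 of the WT libraries it was 0.02 to 0.04, and with the code as a covariate it was 0.18 with 70 positive. With all libraries, 2 members (2.53%) had all GMP libraries above all LSK libraries, beside 6.35% of all genes. Those were Rpl5 (0.49 ± 0.27, adjusted p = 0.836) and Rps12 (0.88 ± 0.59). Rpl15 (0.35 ± 0.31), Rpl27 (0.34 ± 0.31), Rpl10 (0.33 ± 0.31) and Rps27a (0.21 ± 0.21) came next on the positive side. On the negative side the smallest p-values were those of Rpl12 (-0.84 ± 1.04), Rpl7 (-0.19 ± 0.29), Rps20 (-0.35 ± 0.59), Rpl28 (-0.20 ± 0.34), Rpl7a (-0.13 ± 0.25) and Rpl18 (-0.22 ± 0.41).

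Most members varied together over the 12 libraries. The Pearson r of a member's log2 CPM with the median of the other members had a median of 0.66 over the 79, and the 5 lowest were Rpl34 (-0.40), Rpl13 (-0.13), Rps13 (-0.12), Rpl5 (-0.05) and Rpl10a (0.02). These values describe libraries that share depth and scaling. Rpl34 was at 10.4, 12.3 and 25.5 CPM in WT LSK against 7.97, 10.5 and 11.3 CPM in T2F3 LSK, so that T2F3 LSK replicate 1, the highest library for most members, was its lowest in LSK.

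Many ribosomal protein genes carry small nucleolar RNAs, which guide modification of ribosomal RNA, in their introns. In the annotation 30 members hosted 58 such RNAs, 38 of which had an entry in the table and 37 passed the filter. In LSK, 21 of the 37 had a positive difference with a median of 0.01, beside 69 of the 79 tested members and a median of 0.42. Of all genes 53% were positive. One small RNA fell in T2F3, Snord100 in Rps12 (-0.96 ± 0.26, edgeR adjusted p = 0.0488), which is 2.70% of the 37, close to the 2.44% of all genes called lower. In GMP 28 of 37 were positive with a median of 0.40, beside 51.3% of all genes. By edgeR 0 were called, beside 1.14% of all genes, while 2 had an unadjusted p below 0.05, beside 13.6% of all genes. For 24 members a small RNA lies over a host exon, where the count may include it, and the median SD of log2 CPM within groups was 0.47 for these, 0.55 for the 6 other hosts and 0.44 for the 49 tested members with none.

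The other genes of the ribosome's production were described from lists of known genes. Of 52 genes of ribosome assembly, 3 rose in T2F3 LSK (5.77%, beside 2.76% of all genes called higher) and none fell, with a median of 0.48. They were Nolc1, a chaperone of small nucleolar particles (1.28 ± 0.25, edgeR adjusted p = 0.0154), Ftsj3, an RNA methyltransferase (1.03 ± 0.21, 0.0166), and Nhp2, of the H/ACA particles (1.03 ± 0.26, 0.0429). Nolc1 was at 53.7, 80.9 and 83.5 CPM in WT LSK against 198, 139 and 193 CPM in T2F3 LSK. In GMP none was called by edgeR (6 had an unadjusted p below 0.05, beside 13.6% of all genes), the median was -0.04, and Bysl, an assembly factor of the small subunit, had the smallest p (-0.82 ± 0.19, adjusted p = 0.0589). From LSK to GMP in WT 8 of the 52 rose with a median of 0.52, among them Nop9 (1.32 ± 0.24, adjusted p = 0.00380). That is 15.4%, beside 5.72% of all genes called higher. In the same comparison edgeR called 0 of the 79 ribosomal protein genes, limma-voom 3 and DESeq2 1. Over all genes limma-voom called 3186 there and DESeq2 3225.

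Of 34 initiation factor genes, 3 rose in T2F3 LSK (8.82%, beside 2.76% of all genes, median 0.43): Eif3m (1.29 ± 0.21, edgeR adjusted p = 0.00580), Eif2s1, the alpha subunit of eIF2 (0.95 ± 0.20, 0.0196), and Eif3g (0.97 ± 0.25, 0.0470). From LSK to GMP in WT 5 rose (14.7%, beside 5.72% of all genes). Of 20 other genes with TOP messenger RNAs, Nap1l1, a histone chaperone (0.98 ± 0.22, 0.0267), and Btf3, of the nascent chain complex (1.15 ± 0.27, 0.0306), rose in T2F3 LSK (10.0%, beside 2.76% of all genes), with a median of 0.35 over the list. Of 76 genes of the mitochondrial ribosome, 2 rose (2.63%, close to the 2.76% of all genes), Mrpl11 (2.11 ± 0.42, adjusted p = 0.0164) and Mrpl46 (1.39 ± 0.36, 0.0446), with a median of 0.44. Their median in GMP was -0.14, where that of the cytosolic genes was 0.21.

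Of 16 genes of RNA polymerase I, which transcribes ribosomal RNA, 0 were called in LSK by edgeR (4 had an unadjusted p below 0.05, beside 21.5% of all genes), with a median of 0.26. Of 25 genes of the Myc and mTOR network, Mycl rose in T2F3 LSK (4%, beside 2.76% of all genes), at 1.71, 0.504 and 3.32 CPM in WT and 59.1, 100.1 and 3.78 CPM in T2F3 (4.89 ± 1.05, edgeR adjusted p = 0.0216). T2F3 LSK replicate 3 was close to the WT libraries. The other 24 were not called, and the median of the list was -0.40, opposite in sign to that of the ribosomal protein genes. With edgeR 10 of the 25 had an unadjusted p under 0.05, 9 of them lower in T2F3 and 1 higher, beside 21.5% of all genes. In 8 of the 25 all T2F3 LSK libraries were below all WT LSK libraries, beside 13.3% of all genes. In 2 all were above, beside 14.7%. From LSK to GMP in WT, 1 of the 25 was called higher and 1 lower (8%, beside 13.1% of all genes). In T2F3 1 was called lower and 0 higher (4%, beside 0.972%). The gene called lower was Mycn in WT (-6.80 ± 0.77, edgeR adjusted p = 0.000263) and in T2F3 (-5.29 ± 0.69, 0.00375). In these comparisons edgeR called 0 ribosomal protein genes in either, limma-voom 3 and DESeq2 1 in WT, and both 0 in T2F3. Over all genes limma-voom called 3186 in WT and 561 in T2F3, and DESeq2 called 3225 and 522. A link between the Myc and mTOR genes and the family was not tested.

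Of the 14 genes named as called in LSK from these lists, the p53 targets and the hosted RNAs, Eif3m alone kept its call without T2F3 LSK replicate 1 (edgeR adjusted p up to 0.0363 with any 1 of the 12 libraries left out). Mrpl46 was called in 1 of the 12 cases, Eif3g in 2, Nhp2 and Snord100 in 3, Tigar in 6, Nap1l1 and Trp53inp1 in 7, Btf3, Eif2s1 and Mycl in 8, Mrpl11 in 9, and Nolc1 and Ftsj3 in 10.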

How the data were processed

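Per the labels' protocols, total RNA of sorted cells was depleted of ribosomal RNA (RiboMinus) and prepared for Ion Torrent sequencing. The submitters' processing notes name cutadapt 1.2rc2, TopHat, TopHat2 (version 2), BWA 0.5.9, Picard and HTSeq with mm9. Their order, the strand setting and the rule for reads with several matches are not stated there. The authors deposited raw gene counts, with no normalization, in a single table.

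Here the whole table was fitted: filterByExpr by group (minimum count 10) left 16042 genes, scaled by TMM, and edgeR 4.0.16 (R 4.3.3) quasi-likelihood tests used 1 mean per group over 12 libraries (8 residual degrees of freedom). Benjamini-Hochberg adjustment ran over all genes of each comparison, and an adjusted p under 0.05 was called. Symbols, lengths, windows and hosted RNAs came from GENCODE vM21 by identifier, for 19939 of 21497 entries, and no coordinates of mm9 were used. Samples were grouped by title. Replicates of a group differed by more than counting error (chi-square over degrees of freedom, 78.3 to 416).

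LSK and GMP libraries with the same title stem deviated together (r of 0.111 to 0.161 in WT and 0.337 to 0.480 in T2F3). Different stems of a genotype gave an r of at most 0.0158 in WT and 0.0294 in T2F3. Across genotypes the same number gave an r of -0.03 to 0.19, which overlaps the WT values, and different numbers reached 0.214. So these values do not settle the pairing in WT. The main tests used no block, and a block by title stem was an alternative. Alternatives were RLE scaling, reduced library sizes, scaling to the members' counts, no filter, a filter of 5 CPM, blocks, a small RNA covariate, the code of the description label as a covariate (added after the data were seen), 2 groups only, limma-voom (limma 3.58.1), DESeq2 1.42.0 and libraries left out. The tests were checked on simulated data.

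The members and lists were chosen with earlier results of these data known. Named were a fixed set of members with studied roles, second copies with their parents, the 6 members with the smallest p in each direction of a comparison, and up to 3 genes with the smallest p of other lists with a mean of at least 1 CPM; Rps23, Rps28, Rps29, Rpl4, Rpl10a, Rpl32, Rpl35 and Rpl37 were named after their values were seen, for a rank, a spread or a call. A few members that the rule names are not reported here. A count of 0 allows up to 3 counts, for counting error only. Sequences of RefSeq promoters are on GRCm38.p6.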

Additional observations from a re-analysis of the deposited data

How the results depend on the processing

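The filter on low counts left 3 of the 82 members untested at this depth. The genotype comparison in GMP, the T2F3 comparison of populations and the difference of effects gave 0 called members under each alternative and each library left out. In LSK the 4 called members became 0 with scaling to the members' counts, 1 with only the 2 groups compared, 7 with DESeq2, 0 with the code of the description label as a covariate (chosen after seeing the data), 1 without both WT replicate 1 libraries and 0 without both T2F3 replicate 1 libraries; leaving out 1 library gave 1 to 5. The other settings gave 3 to 6. Calls over all genes moved too, from 834 to 192 with scaling to the members' counts and 474 with only the 2 groups. They were 1913 with DESeq2, 18 with the code, 735 without both WT replicate 1 libraries and 136 without both T2F3 replicate 1 libraries. With 1 library left out they were 228 to 1094. For GMP against LSK in WT the 0 became 1 with the block by title stem and 2 with the small RNA covariate. It became 3 with limma-voom and 1 with DESeq2, and 0 to 3 with 1 library left out. Calls over all genes were 2100 in the main setting and 2354, 2423, 3186 and 3225 in those alternatives, in the same order. The block by replicate number left 4 called in LSK and 0 in GMP and changed no other count. The causes were not tested. Reduced library sizes moved the median of all genes from 0.01 to -0.15 in that comparison (members 0.31 to 0.15) and from 0.02 to 0.12 between genotypes in GMP; scaling to the members' counts moved it to -0.26 and -0.02. No direction of the 4 called genes reversed.

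The share of counts in the pool, by construction, rose when small noncoding RNA genes and unnamed clones were left out of the denominator, to 2.53% for WT and 3.09% for T2F3 in LSK and to 2.63% and 2.95% in GMP, and to 2.63%, 3.21%, 2.74% and 3.07%, in the same order, without histone and mitochondrial genes as well. Without the 5 members with the most counts it was 1.23%, 1.64%, 1.39% and 1.69%.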
